A study of Mus musculus with 16 samples.

Results

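Ms4a4a, Ms4a4b, Ms4a4c, Ms4a6b, Ms4a6c, Ms4a6d and Ms4a7 encode membrane proteins of the MS4A family. These 7 genes were taken by symbol from the platform annotation of a mouse lung array study, out of 19938 genes tested. Where a gene has several probe sets, 1 was chosen by its mean log2 value over all 16 arrays, but each of the 7 genes had a single probe set of its own. The genes were proposed with results of these arrays already known, among them the fall of Ms4a4b at day 2. Their changes therefore describe these lungs and are no independent evidence about the family.

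Total lung RNA of C57BL/6 mice, labelled as 10 to 12 weeks of age, was measured on Affymetrix whole-transcript arrays. The trachea of each mouse was instilled with crystalline silica (CS), an inflammatory mineral dust, or with phosphate-buffered saline (PBS), and the mice were wild type (BLT1+/+) or null (BLT1-/-) for BLT1, a leukotriene B4 receptor of neutrophils and other leukocytes. BLT1+/+ and BLT1-/- lungs were collected at day 2. BLT1+/+KRasLA1 and BLT1-/-KRasLA1 lungs were collected at day 60, and KRasLA1 is an oncogenic allele that stays silent until it recombines by chance, after which lung tumors form. Each genotype has 3 CS lungs, named biological replicates in the labels, and 1 PBS array of RNA pooled from 3 mice, which gives 8 groups. Nothing else says that the CS lungs came from separate animals. The p-values therefore reflect the spread of these samples, and some of that spread may be technical. KRasLA1 was present in every day 60 group, PBS controls included, and in no day 2 group, so day and allele cannot be told apart.

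Values are log2 expression levels, with array medians between 8.25 and 8.34. The lung markers Sftpc (surfactant protein C, 14.25 to 14.47) and Ager (13.26 to 13.57) were high on every array. Ltb4r1, which encodes BLT1, lay between 7.22 and 7.63, and BLT1-/- minus BLT1+/+ lungs after silica was -0.19 ± 0.08 (SE) at day 2 (limma, adjusted p = 0.522). No source used here says whether that probe set lies in the deleted part, and the genotype labels are not checked by it. Y-linked Eif2s3y was high on 3 arrays, at 10.09 in BLT1+/+KRasLA1 CS replicate 2 and at 9.68 and 9.04 in the BLT1+/+KRasLA1 and BLT1-/-KRasLA1 PBS pools, and at 4.27 to 4.74 on the other 13. Xist, an RNA of female cells, was at 6.61 in that lung, 12.32 and 12.16 in those pools and 12.75 to 13.06 on the other 13. Day 60 responses thus set CS lungs mostly low for Eif2s3y against pools high for it, and no day 2 array was high. The part of sex in the day 60 values was not tested. In whole lung, more cells of a type and more RNA per cell cannot be told apart.

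MS4A proteins are small, cross the plasma membrane several times and include CD20 (Ms4a1) of B cells and the beta chain of the high-affinity IgE receptor (Ms4a2) of mast cells. They have no enzyme activity of their own and are known as partners that organise other receptors at the cell surface. The members described here are expressed by monocytes, macrophages and T cells, which in the lung include the resident alveolar and interstitial macrophages and the monocytes that enter after injury.

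All 7 genes lie on chromosome 19 of the mouse assembly GRCm38.p6, between bases 11321039 and 11604804, a stretch of 283766 bases that holds 13 genes of any kind in the RefSeq table. That table lists 21 Ms4a genes on the chromosome. The order along the chromosome is Ms4a7, Ms4a4a, Ms4a4c, Ms4a4b, Ms4a6c, Ms4a6b and Ms4a6d. The RefSeq promoter table of that assembly held 6 of the members, with 2 entries for Ms4a7, and not Ms4a6d. Over the 250 bases before the start site, Ms4a4b and Ms4a4c were 70.9% identical in a global alignment, and the other 20 pairs of entries were 47.2% to 52.6% identical. Gap columns count in these percentages. Ms4a6b with Ms4a6c was the lowest of these, at 47.2%, but it had the longest alignment, 154 identical bases over 326 columns. No other of the 20 pairs had as many identical bases, so the low percentage does not make this pair the least similar. The longest run of identical bases was 48 for Ms4a6b with Ms4a6c and 20 for Ms4a4b with Ms4a4c, against 7 to 9 for the other 19 pairs. These 4 promoters are shown because their pairs hold the longest shared runs of the group. The members of each pair can also be set beside their levels in the lung. Each line gives the 120 bases before the annotated start, 5′ to 3′ on the + strand, and the capitals mark the longest run shared within the pair.
Ms4a4c, chr19:11407541-11407660: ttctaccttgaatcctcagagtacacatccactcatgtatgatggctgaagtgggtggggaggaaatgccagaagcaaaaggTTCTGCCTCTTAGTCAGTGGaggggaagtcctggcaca
Ms4a4b, chr19:11443438-11443557: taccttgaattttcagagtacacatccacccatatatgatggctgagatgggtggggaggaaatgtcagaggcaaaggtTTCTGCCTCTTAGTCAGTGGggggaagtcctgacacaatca
Ms4a6c, chr19:11469248-11469367: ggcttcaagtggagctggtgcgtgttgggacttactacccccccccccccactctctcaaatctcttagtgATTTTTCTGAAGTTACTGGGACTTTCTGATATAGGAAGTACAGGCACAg
Ms4a6b, chr19:11518439-11518558: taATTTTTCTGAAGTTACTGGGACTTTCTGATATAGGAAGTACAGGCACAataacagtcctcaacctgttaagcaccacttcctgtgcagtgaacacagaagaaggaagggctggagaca
The run lies 49 to 2 bases before the start of Ms4a6c and 118 to 71 bases before that of Ms4a6b. The annotated starts of Ms4a4c and Ms4a6c used here lie inside the span of their gene models.

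5 motifs were searched in the 250 bases before each start on both strands. The ETS core AGGAAG, as found in binding sites of the myeloid factor PU.1, was in the shared run of Ms4a6b and Ms4a6c, and in Ms4a6b at 2 further places. This motif is common, in 29.5% of 32851 promoters of the table. The AP-1 motif TGANTCA, in 6.75% of all promoters, was in 1 of the Ms4a7 entries, and TATAAA, in 12.4%, was in Ms4a4b. The C/EBP motif TTGCNNAA (9.56% of all promoters) and the core of the interferon-stimulated response element (2.98%) had no match in the windows of the 6 members.

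At day 2, averaged over both BLT1 genotypes, Ms4a6d rose 2.26-fold after silica and Ms4a4b fell 2.47-fold, and the other 5 did not pass the test. At day 60 in KRasLA1 lungs, Ms4a6d and Ms4a7 rose 2.54-fold each, Ms4a6b 1.74-fold and Ms4a6c 1.64-fold, and no member fell. The test was limma's, two-sided, with Benjamini-Hochberg adjustment over all 19938 genes and a threshold of 0.05. At day 2 the called members were 1 higher and 1 lower of 7, where 8.03% of all genes were called higher and 4.37% lower. At day 60 they were 4 higher of 7, where 3.35% of all genes were called higher and 0.677% lower. Within single genotypes, 1 of 7 members was called in BLT1+/+ (1.16% of all genes, either direction), 2 in BLT1-/- (6.6%), 2 in BLT1+/+KRasLA1 (0.762%) and 2 in BLT1-/-KRasLA1 lungs (1.17%). The CS lungs lay apart from both pools for 3 members at day 2, Ms4a6d higher (12.1% of all genes) and Ms4a4b and Ms4a6b lower (10%), and for 6 at day 60, all but Ms4a4a and all higher (9.66%). The members' median difference was -0.09 at day 2, beside -0.02 over all genes, and 0.80 at day 60, beside -0.03.

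**Figure D1:**
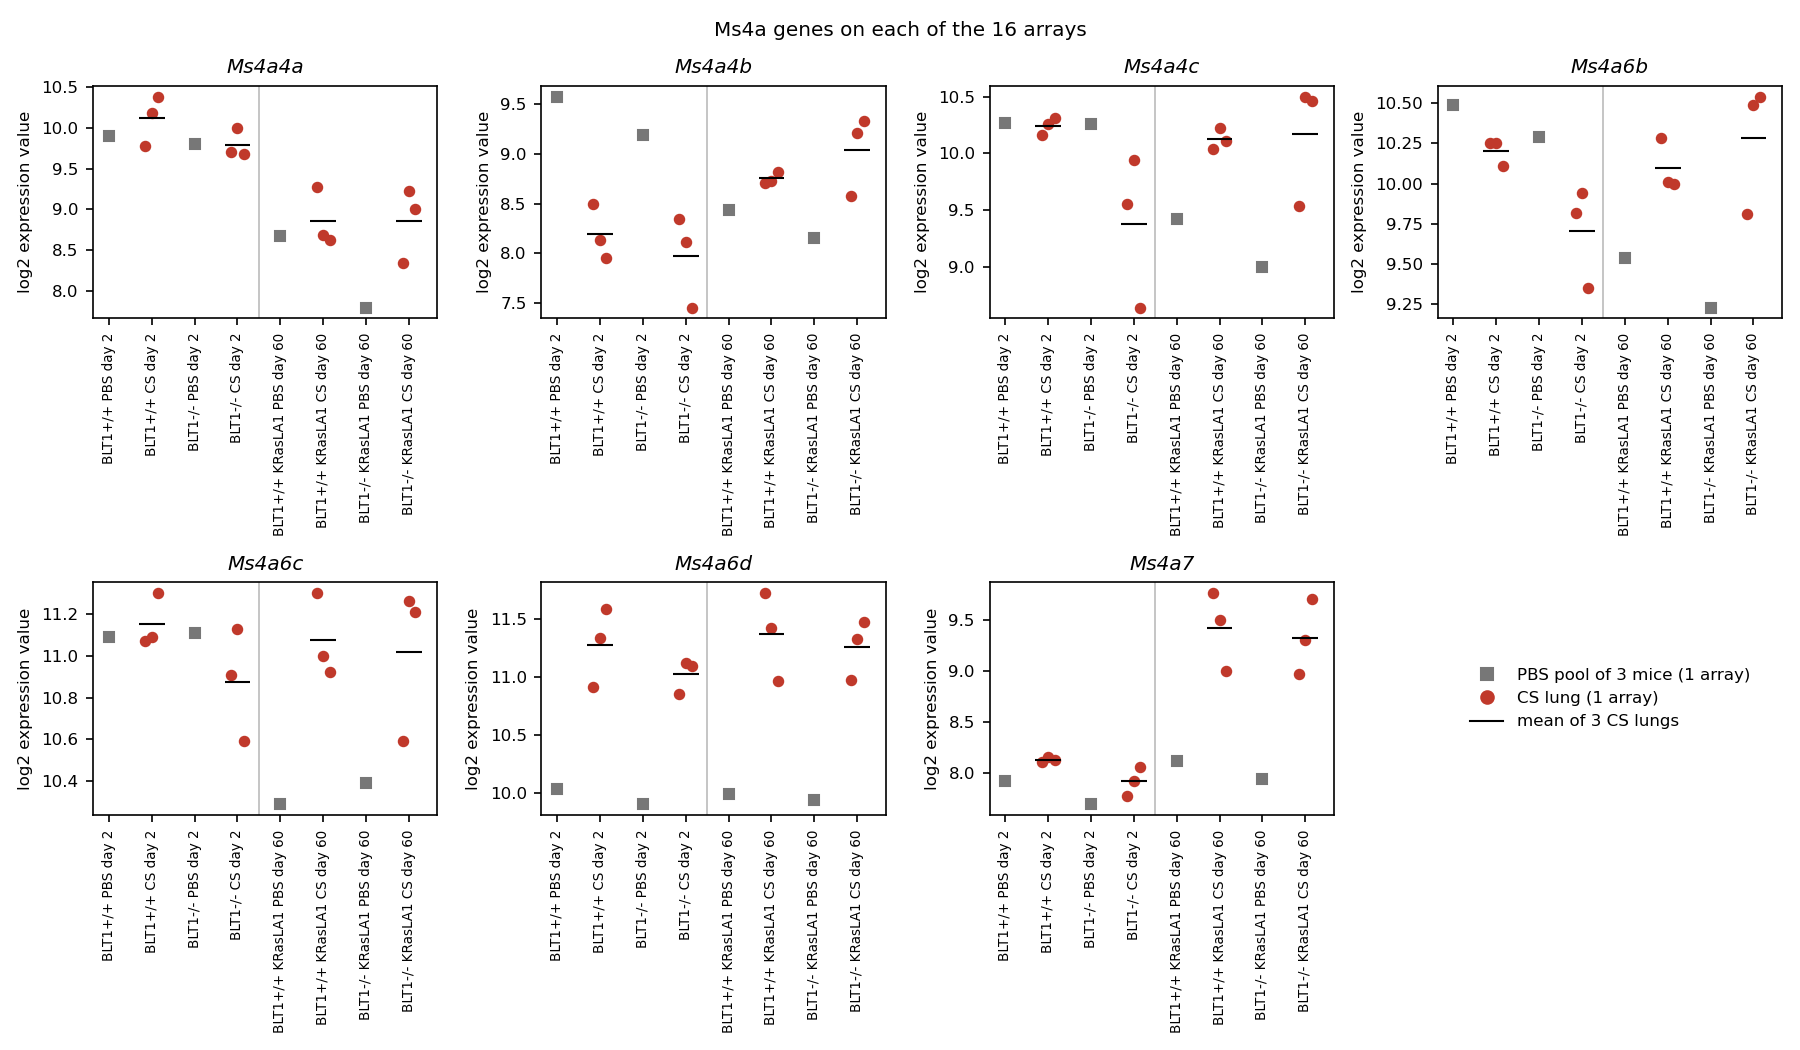
Log2 expression value of each Ms4a gene on the 16 arrays, in 8 groups along the horizontal axis, with a separate vertical scale for each gene. Squares are PBS pools of 3 mice, circles are single CS lungs, black bars are means of 3 CS lungs, and the grey line divides day 2 from day 60. Ms4a6d is higher in each CS lung than in each PBS pool, Ms4a7 only at day 60 by more than 1 log2 unit on average, and Ms4a4b in CS lungs lies below the pools at day 2 and above them at day 60.

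Ms4a6d is a macrophage protein known to act with the complement receptor Vsig4. At day 2 it was at 10.03 in the BLT1+/+ PBS pool and at 10.91, 11.33 and 11.58 in the CS lungs, and at 9.90 in the BLT1-/- pool and 10.85, 11.12 and 11.09 in the CS lungs. At day 60 it was at 9.99 in the BLT1+/+KRasLA1 pool and 11.72, 11.42 and 10.96 in the CS lungs, and at 9.94 in the BLT1-/-KRasLA1 pool and 10.97, 11.32 and 11.47 in the CS lungs. The lowest of the 12 CS lungs lay above the highest of the 4 pools, and the pools of all genotypes lay within a narrow band. The mean response was 1.18 ± 0.19 at day 2 (adjusted p = 0.00193) and 1.34 ± 0.19 at day 60 (adjusted p = 0.00141). It passed the test in each genotype on its own, by 1.24 ± 0.27 in BLT1+/+ (adjusted p = 0.047), 1.11 ± 0.27 in BLT1-/- (0.0291), 1.38 ± 0.27 in BLT1+/+KRasLA1 (0.0352) and 1.31 ± 0.27 in BLT1-/-KRasLA1 lungs (0.0354). The mean responses passed in all 24 alternatives run for each day, without each single array included. Without a PBS pool, the mean response is that of the other genotype alone. Those of single genotypes passed in 15, 21, 16 and 16 of 23, in the same order, with adjusted p up to 0.132. Single CS lungs of any genotype ended these calls: BLT1+/+ replicate 2 or 3, BLT1-/- replicate 1 or 2, BLT1+/+KRasLA1 replicate 2 and BLT1-/-KRasLA1 replicate 2 or 3 for the BLT1+/+ value, and BLT1-/- replicate 2 or 3 for the BLT1-/- value. For BLT1+/+KRasLA1 they were BLT1+/+KRasLA1 replicate 1 or 2 and replicate 2 of each other genotype, and for BLT1-/-KRasLA1 they were BLT1-/-KRasLA1 replicate 2 or 3, BLT1-/- replicate 1 or 2 and BLT1+/+ replicate 2. The responses at day 60 and day 2 differed by 0.17 ± 0.27 (95% interval -0.42 to 0.75, adjusted p = 0.906). The 4 CS groups had means of 11.02 to 11.37, closer together than the lungs within most of them, and the 4 pools lay at 9.90 to 10.03.

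Ms4a7 is known from tissue macrophages, including those derived from monocytes. At day 2 it was at 7.92 in the BLT1+/+ pool and at 8.11, 8.15 and 8.13 in the CS lungs, and at 7.69 in the BLT1-/- pool and 7.77, 7.92 and 8.06 in the CS lungs. At day 60 it was at 8.12 in the BLT1+/+KRasLA1 pool and 9.77, 9.50 and 9.0 in the CS lungs, and at 7.94 in the BLT1-/-KRasLA1 pool and 8.97, 9.31 and 9.71 in the CS lungs. The 6 day 60 CS lungs thus stood above the other 10 arrays, and within those 10 the groups overlapped. The mean response was 0.22 ± 0.19 at day 2, higher than the own pool in 6 of 6 lungs (adjusted p = 0.536), and 1.35 ± 0.19 at day 60 (adjusted p = 0.00123, passed in 24 of 24 alternatives). Within genotypes it was 1.30 ± 0.26 in BLT1+/+KRasLA1 (adjusted p = 0.0406) and 1.39 ± 0.26 in BLT1-/-KRasLA1 lungs (adjusted p = 0.0236). The first of these passed in 12 of 23 alternatives (adjusted p up to 0.134), and was lost without BLT1+/+KRasLA1 replicate 1 or 2, BLT1-/- replicate 1 or 2, BLT1+/+ replicate 2 or 3 or BLT1-/-KRasLA1 replicate 2, all CS lungs. The other passed in 19 of 23 (up to 0.0823), and was lost without BLT1-/-KRasLA1 CS replicate 2 or 3. The response was larger at day 60 than at day 2 by 1.12 ± 0.26 (adjusted p = 0.0426). That difference passed in 9 of 23 alternatives, and its value stayed between 1.03 and 1.29. It did not pass without the mean-variance trend (adjusted p = 0.0556), with quantile normalization (0.0561) or with the replicate number as a block on both days (0.0663). It was also lost without any 1 of the 4 PBS pools (adjusted p = 0.103 to 0.232), where the response of that day is that of a single genotype. The same held without BLT1-/- CS replicate 1 or 2, BLT1+/+ CS replicate 2 or 3, BLT1+/+KRasLA1 CS replicate 1 or 2, or BLT1-/-KRasLA1 CS replicate 2 (0.0538 to 0.0744).

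Ms4a4b is expressed by T cells, where its protein associates with the costimulatory receptor GITR (Tnfrsf18). At day 2 it was at 9.58 in the BLT1+/+ pool and at 8.50, 8.13 and 7.95 in the CS lungs, and at 9.19 in the BLT1-/- pool and 8.34, 8.11 and 7.45 in the CS lungs. All 6 CS lungs were below both pools. At day 60 it was at 8.44 in the BLT1+/+KRasLA1 pool and 8.71, 8.73 and 8.82 in the CS lungs, and at 8.15 in the BLT1-/-KRasLA1 pool and 8.58, 9.21 and 9.33 in the CS lungs. Here all 6 CS lungs were above both pools. The mean response was -1.30 ± 0.22 at day 2 (adjusted p = 0.00251) and 0.60 ± 0.22 at day 60 (adjusted p = 0.2). The day 60 response exceeded that of day 2 by 1.91 ± 0.32 (adjusted p = 0.00618), where 1.7% of all genes were called higher in this difference. By genotype the day 2 values were -1.22 ± 0.32 in BLT1-/- (adjusted p = 0.0362) and -1.38 ± 0.32 in BLT1+/+ lungs (0.0548). Deviations of same-numbered lungs correlated at 0.20 to 0.43 at day 2, beside -0.40 to 0.10 for differently numbered ones. With that replicate number as a block the BLT1+/+ value passed (0.00861). The pool carries no number, so that block makes the error of this value too small. Without a block, the BLT1+/+ value passed without CS replicate 1 of BLT1+/+, BLT1-/- or BLT1-/-KRasLA1 or without BLT1-/- CS replicate 3 (0.0127 to 0.0439). The BLT1-/- value was lost without BLT1-/- CS replicate 2 or 3 or BLT1+/+KRasLA1 CS replicate 1 (0.0509 to 0.0676). Without the BLT1-/- PBS pool the day 2 fall is the BLT1+/+ value alone and did not pass (-1.38, adjusted p = 0.0549). Without the BLT1-/-KRasLA1 PBS pool, day 60 rests on BLT1+/+KRasLA1 alone, and the difference between days did not pass (1.62, adjusted p = 0.116). In order of level, the day 2 CS groups were among the lowest, at 7.97 ± 0.46 (SD, n = 3) in BLT1-/- and 8.19 ± 0.28 in BLT1+/+ lungs, with the BLT1-/-KRasLA1 pool between them. The day 60 CS groups were in the middle, at 8.75 ± 0.06 and 9.04 ± 0.40, and the day 2 pools were highest.

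**Figure D2:**
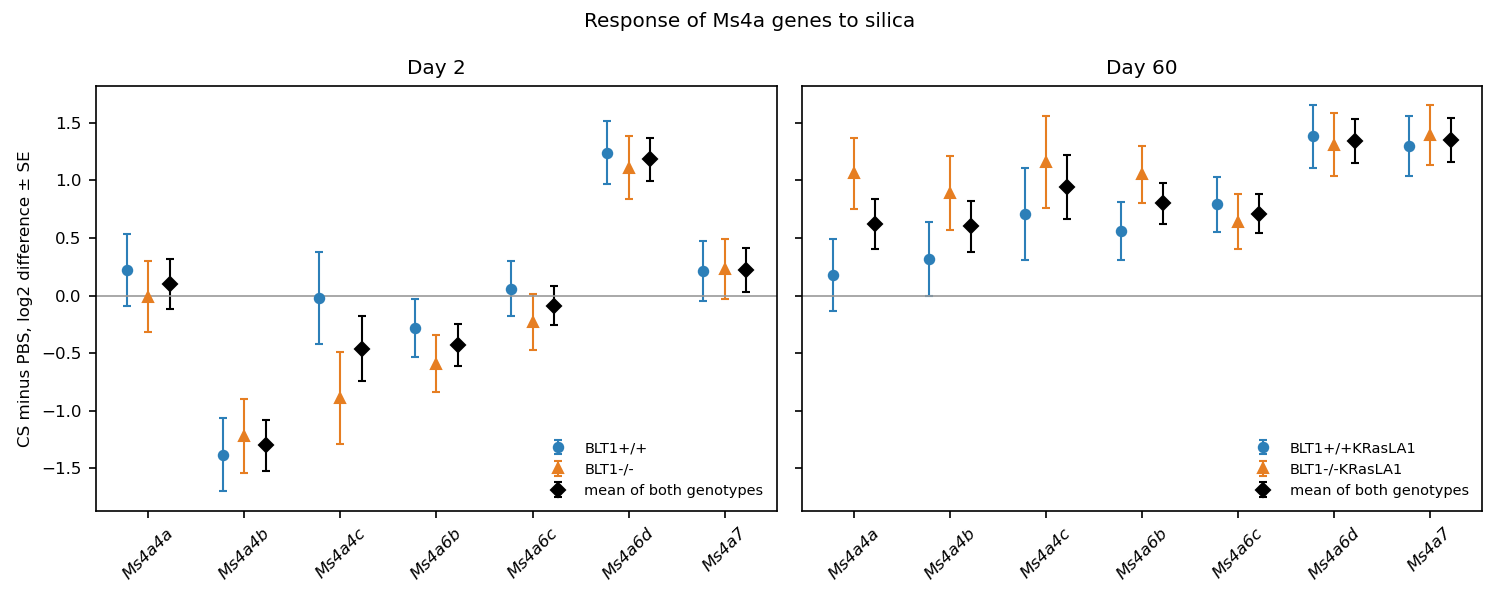
Difference of CS lungs from the PBS pool on the log2 scale, with bars of 1 standard error from the limma fit, for each Ms4a gene at day 2 (left) and at day 60 in KRasLA1 mice (right). Circles and triangles are the BLT1+/+ and BLT1-/- genotypes and diamonds their mean. At day 2 the means run from -1.30 for Ms4a4b to 1.18 for Ms4a6d, and at day 60 all 7 lie between 0.60 and 1.35.

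Ms4a6b, reported in T cells, and Ms4a6c, expressed by monocytes, had the most similar profiles among the members by the unscaled measure given below. Ms4a4c with Ms4a6b came next. In BLT1-/- lungs at day 2 the responses were -0.89 for Ms4a4c, -0.59 for Ms4a6b and -0.23 for Ms4a6c, none of them called. Ms4a6b was at 10.49 in the BLT1+/+ pool and at 10.25, 10.25 and 10.11 in the CS lungs at day 2, and at 10.29 in the BLT1-/- pool and 9.82, 9.94 and 9.35 in the CS lungs. On the day 60 arrays Ms4a6b was at 9.54 in the BLT1+/+KRasLA1 pool and 10.28, 10.01 and 10.00 in the CS lungs, and at 9.23 in the BLT1-/-KRasLA1 pool and 9.81, 10.49 and 10.54 in the CS lungs. The CS lungs lay below both pools at day 2 and above both at day 60. Ms4a6b changed by -0.43 ± 0.18 at day 2 (lower in 6 of 6 lungs, adjusted p = 0.144, and 0.0476 without BLT1-/-KRasLA1 CS replicate 1) and rose by 0.80 ± 0.18 at day 60 (6 of 6 lungs, adjusted p = 0.0216). The difference between the days was 1.24 ± 0.25 (adjusted p = 0.0219). Without a pool, the response of that day is that of the other genotype alone. The day 60 rise then did not pass in BLT1+/+KRasLA1 (0.56, adjusted p = 0.502) or BLT1-/-KRasLA1 lungs (1.05, 0.0701). Nor did the difference between days without the BLT1-/- pool of day 2 (1.08, 0.235) or the BLT1-/-KRasLA1 pool (0.99, 0.264).

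Ms4a6c was at 11.09 in the BLT1+/+ pool and at 11.07, 11.09 and 11.30 in the CS lungs at day 2, and at 11.11 in the BLT1-/- pool and 10.91, 11.13 and 10.59 in the CS lungs. By day 60 the level was 10.29 in the BLT1+/+KRasLA1 pool and 11.30, 11.00 and 10.92 in the CS lungs, and at 10.39 in the BLT1-/-KRasLA1 pool and 10.59, 11.26 and 11.21 in the CS lungs. CS lungs and pools overlapped at day 2 and did not at day 60, and the day 60 CS lungs were at the level of the day 2 arrays. The responses were -0.09 ± 0.17 at day 2 (adjusted p = 0.82) and 0.71 ± 0.17 at day 60 (adjusted p = 0.0318), and their difference was 0.80 ± 0.24 (adjusted p = 0.122, and 0.0235 without BLT1-/-KRasLA1 CS replicate 1). The day 60 rise passed in 16 of 24 alternatives. It was lost without either day 60 pool, where it is the response of 1 genotype. That was 0.79 in BLT1+/+KRasLA1 (adjusted p = 0.208) and 0.64 in BLT1-/-KRasLA1 lungs (0.366). The rise was also lost without BLT1-/-KRasLA1 CS replicate 2 or 3, BLT1+/+KRasLA1 CS replicate 1 or BLT1+/+ CS replicate 2 (0.0514 to 0.0677). With the day 60 arrays fitted alone it did not pass (0.0569).

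Ms4a4c was at 10.27 in the BLT1+/+ pool and at 10.16, 10.26 and 10.31 in the CS lungs at day 2, and at 10.26 in the BLT1-/- pool and 9.55, 9.94 and 8.64 in the CS lungs. On the day 60 arrays Ms4a4c was at 9.42 in the BLT1+/+KRasLA1 pool and 10.04, 10.22 and 10.11 in the CS lungs, and at 9.0 in the BLT1-/-KRasLA1 pool and 9.54, 10.50 and 10.46 in the CS lungs. The BLT1-/- CS lungs of day 2 spread most, with an SD of 0.67 against 0.08 in the BLT1+/+ CS lungs. The response was -0.46 ± 0.28 at day 2 (adjusted p = 0.36) and 0.94 ± 0.28 at day 60 (higher in 6 of 6 lungs, adjusted p = 0.0925). The day 60 value passed without BLT1-/-KRasLA1 CS replicate 1, the lowest lung of its group (1.09, adjusted p = 0.0177) and without BLT1-/- CS replicate 3 (0.0162). The difference between days was 1.39 ± 0.40 (adjusted p = 0.0959), and it passed without BLT1-/- CS replicate 2 or 3 or BLT1-/-KRasLA1 CS replicate 1 (0.0269 to 0.0466).

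For several of these genes, 2 CS lungs were the lowest of their groups. BLT1-/-KRasLA1 CS replicate 1 was the lowest of its 3 lungs for all 7 members. BLT1-/- CS replicate 3 was the lowest for 5 members, and not for Ms4a6d (11.09) or Ms4a7, where it was the highest (8.06). The mean over the 7 members was 9.27 in BLT1-/- CS replicate 3 at day 2, against 9.56 and 9.74 in the other lungs of that group, and 9.54 in BLT1-/-KRasLA1 CS replicate 1 at day 60, against 10.19 and 10.24. The same lungs were low for the monocyte markers listed for this work, with list means of 9.96 against 10.21 and 10.28, and of 9.89 against 10.38 and 10.35. They were also low for type I interferon response genes, at 9.17 against 9.64 and 10.21, and at 9.41 against 10.37 and 10.45. Both lungs were lowest of their groups for neutrophil (10.42 and 9.19), B cell and natural killer cell markers too. Other lists went otherwise. BLT1-/- CS replicate 3 was highest of its group for cell cycle genes (10.99), and BLT1-/-KRasLA1 CS replicate 1 for alveolar macrophage markers (11.05). Both lungs also had the lowest array weights of their groups, 0.586 and 0.318. Weights below 0.586 were also given to BLT1+/+ CS replicates 2 (0.517) and 3 (0.58) and BLT1+/+KRasLA1 CS replicate 3 (0.569). The member means of those BLT1+/+ lungs were 9.91 and 9.96, above the 9.82 of replicate 1. That of the BLT1+/+KRasLA1 lung was 9.78, the lowest of its group. The part of these markers, or of array quality, in the members' levels was not tested.

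Ms4a4a marks macrophages and is known to associate with the beta-glucan receptor Dectin-1 (Clec7a). At day 2 it was at 9.90 in the BLT1+/+ pool and at 9.78, 10.18 and 10.38 in the CS lungs, and at 9.80 in the BLT1-/- pool and 9.70, 10.00 and 9.68 in the CS lungs. By day 60 the level was 8.68 in the BLT1+/+KRasLA1 pool and 9.27, 8.69 and 8.63 in the CS lungs, and at 7.80 in the BLT1-/-KRasLA1 pool and 8.35, 9.22 and 9.0 in the CS lungs. All 8 day 60 arrays were below all 8 day 2 arrays, and CS lungs and pools overlapped at both days. The silica response was 0.10 ± 0.22 at day 2 (adjusted p = 0.831) and 0.62 ± 0.22 at day 60 (5 of 6 lungs, adjusted p = 0.179). Without BLT1-/-KRasLA1 CS replicate 1 the latter was 0.75 (0.036).

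The day 60 responses of several members were measured against PBS pools that were themselves lower than those of day 2. Between the days the pools, 2 against 2 arrays, differed by -1.61 ± 0.27 for Ms4a4a (adjusted p = 0.027), a 3.04-fold fall, and 0.231% of all genes were called lower. Ms4a4b (-1.09 ± 0.27, adjusted p = 0.125), Ms4a4c (-1.06 ± 0.34, 0.244), Ms4a6b (-1.0 ± 0.22, 0.0758) and Ms4a6c (-0.76 ± 0.21, 0.159) did not pass. Ms4a4b passed with the block on the replicate numbers of day 2 (0.0368), although the pools carry no number, and without BLT1-/- CS replicate 3 (0.0497). Ms4a6b passed without that lung (0.0393) or BLT1-/-KRasLA1 CS replicate 1 (0.0214). For these 5 genes both day 60 pools were below both day 2 pools, as were 17.6% of all genes. Ms4a6d differed by -0.00 ± 0.24 (95% interval -0.51 to 0.50) and Ms4a7 by 0.23 ± 0.23, with both day 60 pools above both day 2 pools, as for 19.3% of all genes. The Ms4a4a difference was lost without the BLT1+/+ pool (adjusted p = 0.123), the BLT1-/- pool (0.28) or the BLT1-/-KRasLA1 pool (0.978), and without BLT1+/+ CS replicate 2 (0.0516). Both day 60 pools also stood apart by Eif2s3y, as given above, and 6 of 8 neutrophil markers (such as Retnlg) were called lower in them, with a median of -2.46, as were 1 of 8 monocyte markers (Ccr2, -0.78 ± 0.14) and 1 of 11 T cell markers (Cd3g, -1.01 ± 0.18). Their part in the members' difference was not tested.

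Set directly against each other, the 6 CS lungs of day 60 and the 6 of day 2 gave another order. This comparison was added after the values were seen. Ms4a7 was higher at day 60 by 1.35 ± 0.13 (adjusted p = 1.3e-05), Ms4a4b was higher by 0.81 ± 0.16 (adjusted p = 0.00179), and Ms4a4a differed by -1.09 ± 0.16 (adjusted p = 0.000203). The background is large here, with 12.2% of all genes called higher and 13.8% lower. For the same 3 genes the lungs of the days did not overlap, as for 6.47% of all genes toward higher and 6.93% toward lower. Ms4a4c (0.33 ± 0.20), Ms4a6b (0.23 ± 0.13), Ms4a6c (0.03 ± 0.12) and Ms4a6d (0.16 ± 0.14) did not pass (adjusted p = 0.214 to 0.882). The 95% interval of the Ms4a6c difference was -0.23 to 0.29. The day 60 response, the pool difference and the difference between days share the day 60 pools and are not independent of each other. Between the same lungs all 11 T cell markers were called higher at day 60 (median 0.71), as were 6 of 10 alveolar macrophage markers (median 0.63), and 6 of 8 neutrophil markers were called lower (median -1.36). Of 8 monocyte markers, 2 were called higher and 2 lower (median -0.05), with F13a1 at -0.89 ± 0.10 and Csf1r at 0.30 ± 0.06. All 9 B cell markers (median 1.29) and 5 of 8 dendritic cell markers (median 0.57) were called higher. Their part in the members' differences was not tested.

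**Figure D3:**
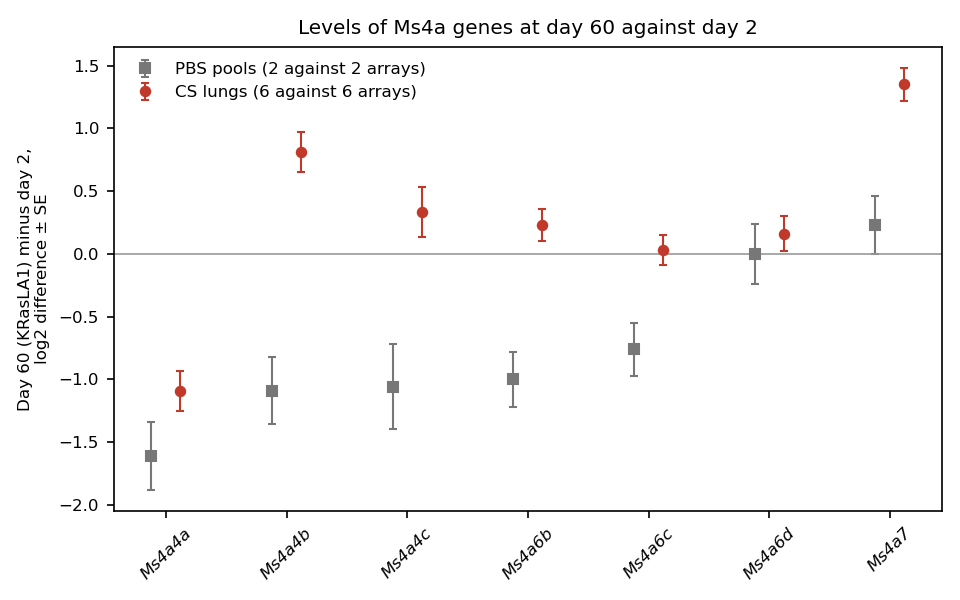
Difference of day 60 KRasLA1 arrays from day 2 arrays on the log2 scale, with bars of 1 standard error from the limma fit, for PBS pools (squares) and CS lungs (circles). Ms4a4a was at -1.61 in pools and -1.09 in CS lungs, Ms4a4b at -1.09 and 0.81, and Ms4a7 at 0.23 and 1.35.

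Loss of BLT1 gave no called difference in any member, with limma at the same threshold. After silica at day 2 all 7 were lower in BLT1-/- than in BLT1+/+ lungs, by -0.21 (Ms4a7) to -0.87 ± 0.28 (Ms4a4c, 95% interval -1.47 to -0.26, adjusted p = 0.357), and 0.0201% of all genes were called. Their median was -0.27, beside 0.01 over all genes. The lungs did not overlap for Ms4a4c, Ms4a6b (-0.50 ± 0.18, adjusted p = 0.411) and Ms4a7, as for 6.13% of all genes in that direction. At an unadjusted p under 0.05, 2 of 7 members and 8.7% of all genes passed. Without BLT1-/- CS replicate 3, Ms4a4c was at -0.50 (adjusted p = 0.593) and Ms4a6b at -0.33 (0.708). At the same time the 12 measured type I interferon response genes were at -0.40 to -1.23 in this comparison, none called, and their part in the members' values was not tested. At day 60 the BLT1 differences ran from -0.12 (Ms4a6d) to 0.28 (Ms4a4b), with 0.0401% of all genes called, and at an unadjusted p under 0.05 there were 0 members and 4.06% of all genes. The BLT1 by silica interaction ran from -0.86 ± 0.56 (Ms4a4c) to 0.16 at day 2 and from -0.15 to 0.88 ± 0.44 (Ms4a4a, 95% interval -0.07 to 1.83) at day 60. It passed in 0 members and 0% of all genes at either day, and at an unadjusted p under 0.05 in 0 members beside 4.49% and 1.99% of all genes. The members' standard errors in it were 0.34 to 0.56.

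Genes of proteins reported as partners of MS4A proteins, 6 in all, followed the days in part. At day 2 the complement receptor Vsig4 (0.86 ± 0.19, adjusted p = 0.0105) and Clec7a (0.59 ± 0.13, 0.0108) rose, and the stem cell factor receptor Kit fell (-0.51 ± 0.14, 0.0251). At day 60 Trem2, a lipid-sensing receptor of macrophages (1.14 ± 0.15, adjusted p = 0.000933), Clec7a (0.96 ± 0.13, 0.00111), Tnfrsf18 (0.54 ± 0.09, 0.00413) and Tyrobp, the signalling adaptor of Trem2 (0.51 ± 0.10, 0.00921), rose, and Vsig4 was at 0.26 ± 0.19 (0.642). Between days the response differed for Trem2 (0.94 ± 0.21, adjusted p = 0.038) and Tnfrsf18 (0.62 ± 0.13, 0.0235). Of 16 other family members, the relatives Tmem176a and Tmem176b included, 14 were measured, and their median response was 0.05 at day 2 and 0.04 at day 60. At day 2 the B cell gene Ms4a1 fell (-1.55 ± 0.21, adjusted p = 0.000671) and Tmem176a rose slightly (0.22 ± 0.06, 0.0353), and at day 60 Tmem176a alone of the 14 passed (0.25 ± 0.06, 0.0454), with Ms4a1 at 0.75 ± 0.21 (0.072). Ms4a1 and Ms4a4b both had a larger response at day 60 than at day 2, by 2.30 ± 0.30 (adjusted p = 0.00183) for Ms4a1.

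Markers of the cells that express these proteins also differed. At day 2, 8 of 11 T cell markers were called lower and 0 higher (median -0.47), among them Cd3g (-0.90 ± 0.15), as were 9 of 9 B cell and 7 of 9 natural killer cell markers. At day 60, 8 of 11 T cell markers were called higher (median 0.56; Cd3g 1.03 ± 0.15). The T cell list mean was 8.83 and 8.89 in the day 2 pools, 8.2 to 8.52 in the CS lungs of that day, 8.46 and 8.48 in the day 60 pools and 8.80 to 9.37 in their CS lungs. CS lungs were thus below the pools at day 2 and above them at day 60, as for Ms4a4b. The B cell list mean had the same order, at 9.73 and 9.56 in the day 2 pools, 8.29 to 8.98 in the CS lungs, 9.26 and 9.16 in the day 60 pools and 9.44 to 10.05 in their CS lungs, and 1 of 9 B cell markers was called higher at day 60 (median 0.44). So had the dendritic cell list, at 8.94 and 8.74, 8.28 to 8.57, 8.76 and 8.66, and 8.82 to 9.04, with 5 of 8 markers called lower at day 2 and 4 higher and 1 lower at day 60. Of 11 tissue macrophage markers, 3 were called higher and 1 lower at day 2 and 5 higher at day 60, with Cd68 at 0.63 ± 0.14 and 1.04 ± 0.14 and C1qb at 0.40 ± 0.13 (not passed) and 0.98 ± 0.13. Of 8 monocyte markers, 2 were called higher (Cd14, 1.77 ± 0.19, and Fcgr1, 0.77 ± 0.22) and 1 lower (Ccr2, -0.38 ± 0.12) at day 2, and 4 higher at day 60. The part of cell numbers in the members' responses was not tested.

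The genes whose profile over the 16 arrays was most like that of a member were sought for the 6 members whose group means spanned over 1 log2 unit, by the root mean square difference in log2 units after each gene's own mean was removed. These are descriptions over arrays that share their RNA. For Ms4a7 they were the E3 ligase gene Rnf128 (0.18), Trem2 (0.19) and Slamf7 (0.21), where the median over all genes was 0.74. For Ms4a6d they were the receptor gene Lilr4b (0.17), the complement receptor gene C3ar1 (0.18) and the urokinase gene Plau (0.20), against a median of 0.62. Ms4a4b was closest to Dapl1 (0.16), the chemokine receptor gene Cxcr5 (0.17) and Gimap3 (0.18), against 0.57. Ms4a6b was closest to Ccr2, the receptor that brings monocytes into tissue (0.16), Ipcef1 (0.16) and Treml2 (0.18), against 0.42, and Ms4a4c to Ifi206 (0.19), Ms4a6b (0.22) and Plac8 (0.25), against 0.55. Ms4a4a had no gene as close, with F13a1 (0.31), Dhrs9 (0.32) and 9830107B12Rik (0.33) against 0.72. Among the members, Ms4a6b and Ms4a6c were the closest pair (0.19), followed by Ms4a4c with Ms4a6b (0.22), and Ms4a4a and Ms4a7 the farthest apart (1.19). Ms4a4b and Ms4a4c, whose promoters had the highest percent identity with gaps counted, were 0.44 apart by this measure. It removes each gene's mean and is not scaled, so genes that vary little come out closer, and Ms4a6b and Ms4a6c had the smallest ranges of the 7 over the arrays (1.31 and 1.02). Probe sequences were not used here, so how far near-identical family members share hybridisation was not tested.

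**Figure D4:**
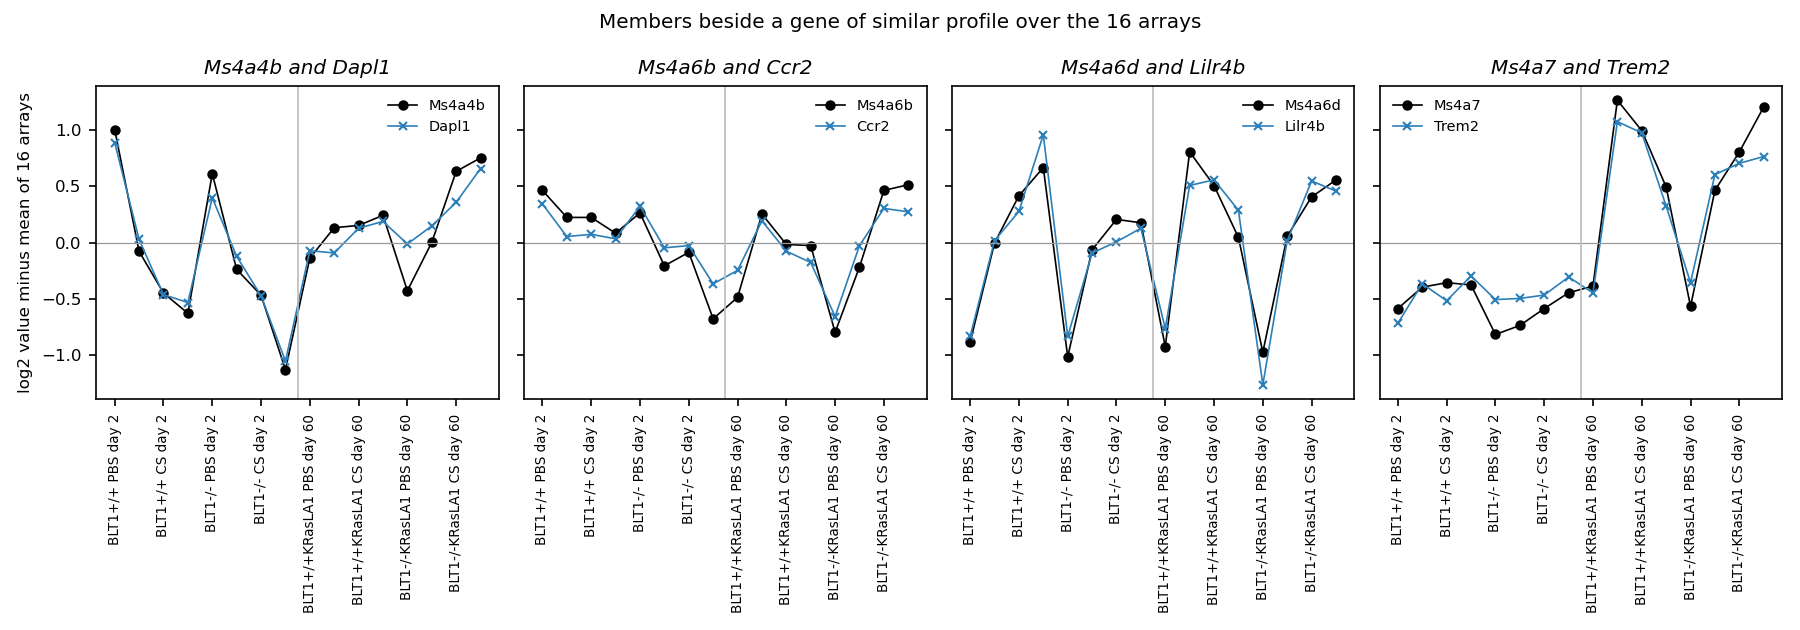
Log2 value minus the gene's mean over the 16 arrays for 4 Ms4a genes (black circles) and a gene of similar profile (blue crosses), with arrays in the order of the 8 groups and the grey line between day 2 and day 60. Ms4a7 and Trem2 are both high only in the 6 CS lungs of day 60, and Ms4a6d and Lilr4b are both low in the 4 PBS pools.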

How the data were processed

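The authors deposited 1 log2 value per probe set for each of the 16 arrays. The submitters' processing notes name RMA and Partek 6.6 for this. A normalization of this kind hides changes in the amount of RNA per lung and understates changes of dim probe sets. Of 35556 probe sets, 21789 had 1 gene symbol, 1621 several and 12146 none in the platform annotation, and those with 1 symbol gave 19938 genes (probe set with the highest mean). Gene identifiers of 21698 were found in a RefSeq table (GRCm38.p6), with 0 symbols updated and 0 columns of values unused.

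The test used limma 3.58.1 and R 4.3.3 on a model of 8 group means over 16 arrays (variance moderated with a trend on the mean level, two-sided, Benjamini-Hochberg over 19938 genes, threshold 0.05). The spread comes from the 12 CS lungs (8 residual and 5.4 prior degrees of freedom), and each pool was assumed to vary like a lung. The number of arrays limits the precision: median standard errors were 0.14 for lungs against 1 pool, 0.10 for mean responses and 0.20 for interactions. Errors are standard errors unless called SD. On simulated data, the test of the mean day 2 response found 92 of 100 genes moved by 1 log2 unit and 100 of 100 moved by 2, with 6 false calls. Far fewer genes were moved than were called in the real response, and pools were simulated with the spread of a lung. Deviations of same-numbered lungs of the 2 genotypes correlated at 0.43, 0.20 and 0.34 at day 2, and at 0.09, 0.01 and 0.06 at day 60. Those of differently numbered lungs ran from -0.40 to 0.10 at day 2 and from -0.09 to 0.06 at day 60. The labels state no pairing, and whether the numbers pair the lungs was not tested. Alternatives were no trend, array weights, quantile normalization, a filter on dim probe sets, the mean of all probe sets of a gene, arrays of the day alone, the replicate block and leaving out each array; the block at day 2 alone and the comparison of CS lungs between days were added after seeing the data. With a PBS pool left out, a mean response is that of the other genotype alone, and a pool difference rests on 1 pool of that day. Promoters were aligned with Biopython 1.88.

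The members and all gene lists were chosen with earlier results of these data known. The rule for named genes takes the 7 members, the other family and partner genes, Ltb4r1, up to 3 genes of each other list with the smallest p, and the 3 genes most like each member. The lung markers, Eif2s3y and Xist are checks. The mutated gene of the KRasLA1 allele was not analysed here.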

Additional observations from a re-analysis of the deposited data

Results flagged for a closer look

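The silica response differed between day 60 and day 2 for 3 of the 7 genes by limma's test of the difference itself: by 1.91 for Ms4a4b, 1.24 for Ms4a6b and 1.12 for Ms4a7 on the log2 scale. In that difference 1.7% of all genes were called higher. The Ms4a7 difference passed in 9 of 23 alternatives (adjusted p up to 0.232), that of Ms4a4b in 22 and that of Ms4a6b in 21. For Ms4a4b (1.91) and Ms4a6b (1.24), every CS lung of day 2 lay below the PBS pools and every CS lung of day 60 above them. Day and the KRasLA1 allele cannot be told apart in these differences, and the pools of the days differ as the report gives.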

How the results depend on the processing

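No member value changed sign among called results: of 707 member values under other settings, 666 kept their side of the threshold, 17 lost it and 24 gained it, and of 1400 with 1 array left out, 1321, 58 and 21 did. Members called, beside the counts of the report, were as follows. Without the mean-variance trend: 0 in BLT1+/+ (1 in the report), 0 in BLT1+/+KRasLA1 (2) and 1 in BLT1-/-KRasLA1 (2). With array weights: 2 in BLT1+/+, 7 in BLT1-/-KRasLA1, 7 in the mean day 60 response (4), 5 in its difference from day 2 (3), 4 in the PBS pools (1) and 5 in the CS lungs between days (3). With the arrays of the day alone: 1 in BLT1-/- (2), 0 in BLT1+/+KRasLA1 and 0 in BLT1-/-KRasLA1. With the replicate block: 2 in BLT1+/+, 1 in BLT1+/+KRasLA1, 1 in BLT1-/-KRasLA1 and 2 in the PBS pools; with the block at day 2 only: 2 in BLT1+/+, 1 in BLT1+/+KRasLA1 and 2 in the PBS pools. At day 60, deviations of same-numbered lungs correlated at only 0.01 to 0.09. There the replicate block brought Ms4a4b (adjusted p = 0.0295) and Ms4a4c (0.0438) past the threshold in the mean response. Ms4a6c lost its call (0.0571). The pools carry no number, so the block makes errors against them too small. With 1 array left out the counts ran from 0 to 2 in BLT1+/+, BLT1-/- and BLT1+/+KRasLA1, 0 to 6 in BLT1-/-KRasLA1, 1 to 3 in the mean response at day 2 and 2 to 6 at day 60, 0 to 5 in the difference between days, 0 to 3 in the PBS pools and 3 to 4 in the CS lungs. The cause of these moves was not tested. Over all genes, counts also moved by more than 1.5 times. The BLT1+/+ count of 232 became 134, 93, 730 and 749 (no trend, day alone, block, day 2 block) and 65 to 685 with 1 array left out. The BLT1-/- count of 1315 became 2647, 425, 2277 and 2345 (weights, day alone, block, day 2 block) and 697 to 1629. The BLT1+/+KRasLA1 count of 152 became 101, 676, 59 and 231 (no trend, weights, day alone, block) and 43 to 477, and the BLT1-/-KRasLA1 count of 234 became 876 with weights and 69 to 432. The mean day 2 count of 2473 became 1589 (day alone) and 231 to 3099, the mean day 60 count of 802 became 1729 (weights) and 152 to 1040, and their difference of 469 became 875, 911 and 977 (weights, block, day 2 block) and 39 to 716. The pool count of 79 became 44, 335, 202 and 165 (no trend, weights, block, day 2 block) and 0 to 103. BLT1 differences after silica were called for 4 genes at day 2 (2 with no trend and with the day alone, 21 with the day 2 block, 1 to 6) and 8 at day 60 (14 with weights, 3 with the day alone, 1 to 8).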
